A study of Mus musculus with 10 samples.

Results

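Mouse marrow progenitors immortalized in culture by the fusion protein NUP98-NSD1 were compared, gene by gene, with progenitors immortalized by HoxA9. The comparison takes 6 of the 10 arrays of the series, chosen by their titles: 3 clones labelled Myeloid_NUP98NSD1 and 3 labelled Myeloid_HoxA9. The remaining arrays, 3 of clones carrying HoxA9+Meis1 and 1 of cells carrying MLL-ENL, entered the fit to estimate the spread, and their values are given where they bear on a result. Every culture came from primary marrow progenitors, was derived in medium with stem cell factor and no GM-CSF, and was measured as total RNA on the Affymetrix Mouse Genome 430 2.0 array after a cytoplasmic extraction. The sources used here do not give the vector, the strain and age of the marrow donors, or whether the clones of a group came from separate animals. The p-values therefore measure the spread between clones, which may be technical.

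NUP98-NSD1 joins the repeats of a nuclear pore protein to NSD1, an enzyme that methylates lysine 36 of histone H3, and it occurs in acute myeloid leukaemia, where genes of the Hox-A cluster stay on. HoxA9 is a homeobox transcription factor of that cluster, and when overexpressed it keeps myeloid progenitors dividing. Such immortalized progenitors are held at an immature stage of myeloid development. Neutrophils load primary granules first (myeloperoxidase, elastase) and secondary granules later (lactoferrin, cathelicidin), whereas mast cells and basophils store histamine and tryptases or chymases and carry the high-affinity IgE receptor.

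The clearest group differences were in granule genes. Of 23 measured genes of secondary granules and neutrophils, 16 rose in the NUP98-NSD1 clones and 0 fell, with a median log2 difference of 2.90. This median stayed between 2.12 and 3.00 under 4 other ways of scaling the arrays. With 1 clone left out it ran from 2.36 (without NUP98-NSD1 clone 3) to 3.33 (without HoxA9 clone 3), and 14 to 17 genes rose. Of 15 measured genes of histamine-storing cells and eosinophils (the mast cell list), 10 rose and 0 fell, with a median of 3.01. That median was 2.24 to 3.28 under the other scalings, 4.71 without NUP98-NSD1 clone 3, and 2.07 and 2.08 without clones 1 and 2. The 2 lists held 27 and 26 genes, of which 23 and 15 had a probe set above the filter level of 369 on at least 3 arrays. A gene could pass this filter through the 3 NUP98-NSD1 arrays alone, which can raise the share that rose and the median. Over all 14233 genes tested the median was -0.14, 13.3% rose (1887) and 18.2% fell (2596, or 1675 without HoxA9 clone 2); with the arrays set to a common median 2100 rose and 1752 fell. Here a gene is read by its brightest probe set, it rose or fell if limma's Benjamini-Hochberg adjusted p was under 0.05, and log2 differences are NUP98-NSD1 minus HoxA9 on the log2(signal + 32) scale. The samples are bulk RNA, so fewer cells of a type and less RNA per cell cannot be told apart.

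The 2 groups also differed outside their genes. The hybridization controls, bacterial and phage transcripts added to every sample at fixed amounts, averaged 13.23 to 13.41 in log2 signal on the HoxA9 arrays and 14.04 to 14.13 on the NUP98-NSD1 arrays, a difference of 0.77 over 18 probe sets. The HoxA9+Meis1 arrays read 13.18 to 13.42 and the MLL-ENL array 14.01, so control level and oncogene cannot be told apart between the 2 groups compared. Signals of actin at the 3' end were 1.13 to 1.17 times those at the 5' end in HoxA9 and 1.18 to 1.43 times in NUP98-NSD1. Scaling the arrays to a common control mean moved the median of all genes from -0.14 to -0.91, and with it 364 genes rose and 9718 fell. On that scale rises outnumbered falls in only 3 of the 31 gene lists described here, the neutrophil list (16 and 2), the mast cell list (8 and 1) and the stem and progenitor list (8 and 7). Differences and calls are those of the deposited signals, tested against 0, and the median of all genes is given for comparison. Among single genes the lead is given to those on which several probe sets agreed. The neutrophil and mast cell lists had only 1 and 3 genes with 2 or more probe sets past the filter. Agreement does not remove a shift shared by a whole array. Agreeing falls numbered 532 as deposited, 276 with a common median and 3820 on the control scale.

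Probe sets of the same gene agreed in some genes and opposed each other in others. Of 6413 genes with 2 or more probe sets past the filter, 536 (8.36%) had at least 2 probe sets called higher in NUP98-NSD1 and none called lower, and 532 (8.30%) had at least 2 called lower and none higher. Another 289 genes had probe sets called in opposite directions, 21.3% of the 1357 genes with at least 2 called. Leaving out HoxA9 clone 1, 2 or 3 reduced the agreeing falls to 345, 289 and 317 and the disagreeing genes to 167, 151 and 156. In 203 of these 289 genes (70.2%) the brightest called probe set was the one that rose. Direction moved with brightness over all probe sets: 6.13% of the dimmest fraction when they were cut into 4 equal ones were called higher and 10.9% lower, against 22.3% and 20.2% of the brightest fraction. Each called probe set changed at least 2-fold in 130 of the agreeing rises and 81 of the agreeing falls. Of the agreeing genes, 127 rises and 92 falls had 3 or more called probe sets.

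**Figure D1:**
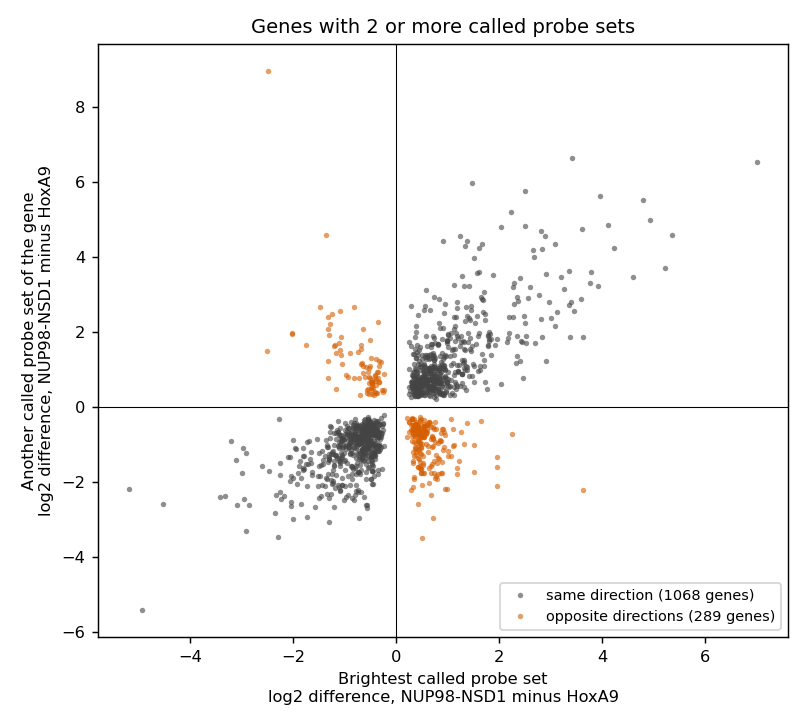
Each point is 1 of the 1357 genes with 2 or more called probe sets: the log2 difference (NUP98-NSD1 minus HoxA9) of its brightest called probe set is on the x axis, and that of another called probe set is on the y axis (the brightest of opposite direction where there is one, otherwise the one farthest from it). The 1068 grey points lie in the quadrants of agreement, and the 289 orange points lie in those of opposite directions.

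The leading agreeing genes were chosen among those whose groups did not overlap at any called probe set. They were ranked by the probe set that changed least among those called, and histidine decarboxylase stood first among the rises. Hdc makes histamine, and 1 of its probe sets read 92.9, 105 and 105 in HoxA9 clones 1, 2 and 3 and 14418, 16727 and 7765 in NUP98-NSD1 clones 1, 2 and 3. Every NUP98-NSD1 clone lay far above every HoxA9 clone, clone 3 lowest of the 3, and the rise was at least 30.8-fold (limma adjusted p 4.53e-06). A rise written as at least a value sets a dimmer group whose arrays all lay below the filter level of 369 at that level. The other Hdc probe set rose by a log2 difference of 7.0 ± 0.68 (SE, n = 3 per group), which became 6.36 without HoxA9 clone 2 and 7.75 without HoxA9 clone 3.

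Surface and signalling proteins made up much of the rest. Sema4d, a membrane semaphorin, read 989, 1103 and 1545 in HoxA9 and 12437, 11987 and 12975 in NUP98-NSD1, clones 1 to 3 in each case. The NUP98-NSD1 clones lay close together, and the difference was 3.35 ± 0.19 (SE; limma adjusted p 8.78e-06), with at least 7.73-fold at a second probe set. Tmem40, a transmembrane protein, read 1468, 1356 and 1309.7 against 8335, 10050.2 and 13164, 2.88 ± 0.20 (SE), here with clone 3 the highest. Its other called probe sets rose by 4.25 (3.58 without HoxA9 clone 1) and at least 8.74-fold. Iqgap2, a scaffold of the actin cytoskeleton, read 436, 489 and 601 against 4102, 3082 and 2353, and its 2 probe sets differed by 2.55 and 3.12.

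Further members of this class were lowest in NUP98-NSD1 clone 3 in most cases. Adgrg1, an adhesion G protein-coupled receptor, read 123, 101 and 133 against 5905, 5247 and 2578, at least 10.8-fold, and rose by 4.11 at its other probe set (4.71 without NUP98-NSD1 clone 3). Kcnn4, a calcium-activated potassium channel, read 142, 139 and 189 against 7047, 7264 and 2653, at least 12.9-fold. The tetraspanin Tspan13 rose by 3.46 and 4.60 at its 2 probe sets. Clone 3 was again the lowest of the 3 for these genes, and no NUP98-NSD1 clone overlapped a HoxA9 clone, which the choice of leading genes required. Alcam, an adhesion molecule, went the other way among the clones, with 1819, 2259.7 and 4829.6 in NUP98-NSD1 against 303, 400.5 and 539.8 in HoxA9. All 3 Alcam probe sets rose, by 2.65 at the brightest and at least 5.36-fold and 6.54-fold at the others.

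For a few of the leading rises the probe sets themselves limit the reading. Both probe sets of Slc45a3 (at least 11.4-fold and 11.5-fold) and of Ms4a4c (at least 10-fold and 12.2-fold) carry the array's suffixes for probes that can match transcripts of other genes, as do those of Hdc. Without NUP98-NSD1 clone 3 the bounds for Slc45a3 were 17.9 and 18.4. Hmga2, an architectural protein of chromatin, rose at 3 probe sets, by 2.64, 3.40 and at least 16.2-fold, but the call of the first was lost without any 1 of 5 clones (limma adjusted p 0.0512 to 0.0749, differences 2.38 to 2.69) and held only without NUP98-NSD1 clone 3. Cxxc5, a zinc finger protein that binds unmethylated CpG, rose by 3.09 and at least 7.45-fold, and the transcript AI504432 by 2.50 and at least 6.53-fold. Of the 15 leading rises, 14 kept at least 2 called probe sets whichever clone of either group was left out, and Ms4a2 did not.

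Among the leading falls were 2 cell surface proteoglycans that bind growth factors. Syndecan 2 (Sdc2), which stood first, read 6621, 4454 and 3436 in the HoxA9 clones and 314, 68.5 and 71.4 in the NUP98-NSD1 clones. The HoxA9 clones lay apart above the filter level and the NUP98-NSD1 clones all below it, so the fall was at least 11.7-fold at the brightest of its called probe sets and at least 8.09-fold and 6.82-fold at the others. Betaglycan (Tgfbr3), a co-receptor of TGF-beta, read 7929.7, 7239 and 11027 against 412, 138 and 147, a difference of -5.18 ± 0.52 (SE; limma adjusted p 0.000116). Its second probe set was less firm: it fell by 2.19, a call lost without any HoxA9 clone or NUP98-NSD1 clone 2 (differences of -2.26, -2.22, -2.09 and -2.21) and moved to -3.01 without NUP98-NSD1 clone 1 and -1.35 without clone 3.

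Enzymes and signalling proteins were among the other leading falls. Retinol saturase (Retsat) read 13646, 10408 and 8348 in HoxA9 and 2608, 2298 and 2734 in NUP98-NSD1, a difference of -2.05 ± 0.20 (SE), with -1.84 at its other probe set. Prdx4, a peroxiredoxin of the endoplasmic reticulum, read 25144, 28972 and 17611 against 6341, 6101 and 6563, and its 3 probe sets differed by -1.88, -1.70 and -1.58. The groups did not overlap at any of these, which the choice of leading genes required. Neuregulin 2 (Nrg2), a ligand of ErbB receptors, read 4437, 3954 and 3379.5 against 828, 753 and 641 (-2.35), with -2.82 at a second probe set (-2.15 without NUP98-NSD1 clone 1). A dim remaining probe set did not pass (0.27, groups overlapping). Ifi209, an interferon-inducible nuclear protein, fell by 3.41 and 2.40 at its 2 probe sets, and Rnf128, a membrane E3 ubiquitin ligase, by 2.44 and 2.24.

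The other leading falls rested more on single clones. Fam110c fell by 2.91 at 1 probe set and by 3.30 at another, the latter moving to -4.03 without NUP98-NSD1 clone 1 and -2.43 without clone 3. Cystatin B (Cstb), an inhibitor of cathepsins, read 1816, 3482 and 22248 in NUP98-NSD1 clones 1, 2 and 3 against 27278, 48754 and 50532 in HoxA9, so clone 3 came near the HoxA9 range. Its difference of -2.95 became -4.00 without NUP98-NSD1 clone 3 and -2.20 without clone 1. Selenbp1, a selenium-binding enzyme, fell by 2.07 and 1.96 (-2.70 and -2.57 without NUP98-NSD1 clone 3). Of the 15 leading falls, 9 kept at least 2 called probe sets whichever clone was left out; Cstb, the transporter Abca13, the signalling inhibitor Irak3, thrombospondin 1 (Thbs1), the phosphoprotein Pea15a and Tgfbr3 lost them for 4, 3, 6, 5, 6 and 4 of the 6 clones left out in turn. Ube2d-ps is annotated as a pseudogene, and its probes could read transcripts of the related Ube2d genes.

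**Figure D2:**
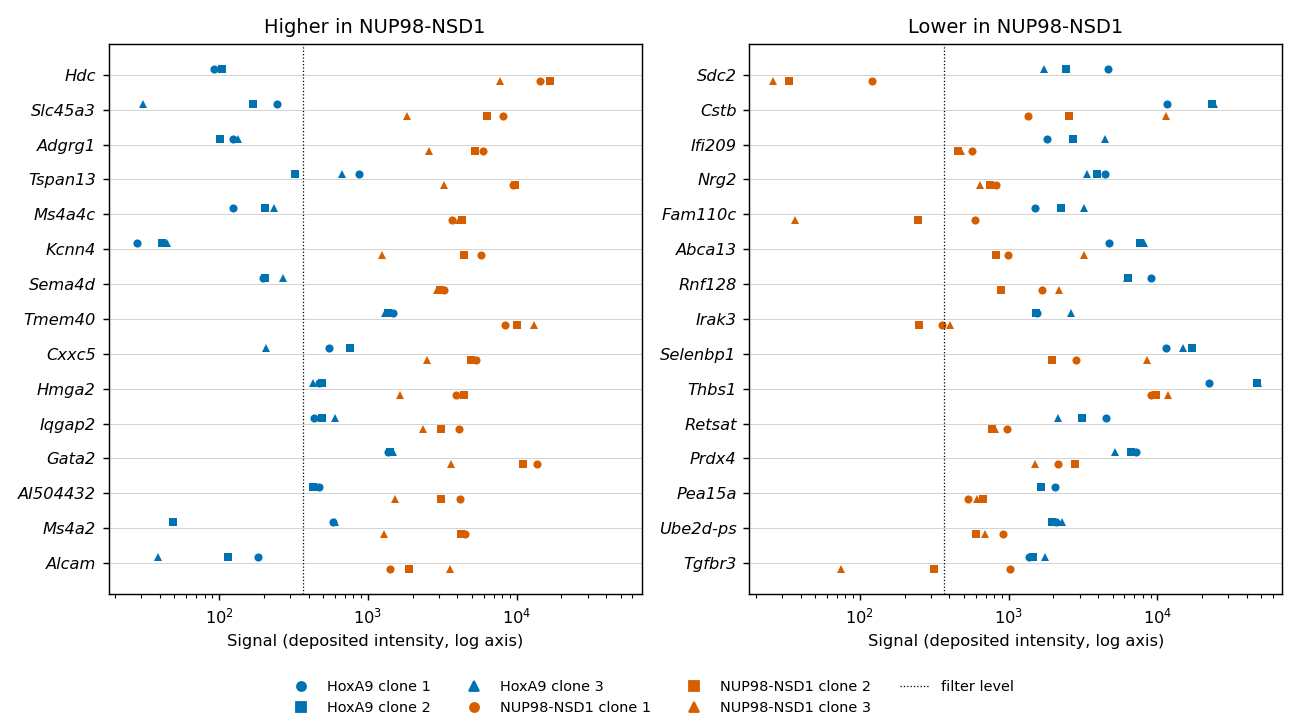
Deposited signal (log axis) of the 15 leading agreeing rises and 15 leading agreeing falls in each of the 3 HoxA9 clones (blue) and 3 NUP98-NSD1 clones (orange), for the called probe set with the smallest difference. Dots lie on 1 line per gene, the marker shape gives the clone, and the dotted line is the filter level of 369; the genes were chosen so that no NUP98-NSD1 point overlaps the HoxA9 range of its gene.

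Secondary granule genes rose from low or near-absent signal, and most of them have only 1 kept probe set, so agreement could not be checked. The 1 gene of the list with several, Itgb2l, had 3 kept and none called, and its brightest differed by -1.64. Camp, the cathelicidin precursor, read 48.1, 36.3 and 75.8 in HoxA9 clones 1, 2 and 3 and 6886, 6798 and 91350.2 in NUP98-NSD1 clones 1, 2 and 3. Every HoxA9 clone was below the filter level, while NUP98-NSD1 clone 3 lay far above clones 1 and 2, and the rise was at least 40.6-fold (leaving out NUP98-NSD1 clone 3 gave at least 17.1-fold, and the log2 difference of 7.60 became 6.36; 8.22 and 8.23 without clones 1 and 2). Ngp, neutrophilic granule protein, read 1403, 1365 and 1082 against 70399, 88526 and 237055 (6.45 ± 0.63, SE; limma adjusted p 0.000122). The calprotectin subunit S100a9 read 621, 69.2 and 793 against 168207, 197465 and 268316, a difference of 9.10, or 8.14 without HoxA9 clone 2. For both genes every NUP98-NSD1 clone lay far above every HoxA9 clone, with clone 3 the highest.

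Lactoferrin differed among the NUP98-NSD1 clones. Ltf read 557, 734 and 684 in HoxA9 and 2589, 2708 and 42737 in NUP98-NSD1 clones 1, 2 and 3, so clones 1 and 2 were only a few times above HoxA9 and clone 3 was far above all. The difference of 3.30 ± 0.86 (SE; limma adjusted p 0.0166) became 1.97 without NUP98-NSD1 clone 3, 3.98 without clone 1 and 3.95 without clone 2. The collagenase Mmp8 differed evenly, with 377, 482 and 831 against 8968, 10421 and 11065 (4.16). The leukotriene B4 receptor Ltb4r1 read 23.9, 39.9 and 379 against 5528, 6193 and 16264 (6.13, or 7.03 without HoxA9 clone 3). Genes of the list that did not pass included the gelatinase Mmp9 (0.03), Hp (-0.19) and the neutrophil surface protein Cd177 (-0.39), whose groups overlapped.

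Primary granule genes, several of them already bright in the HoxA9 clones, differed less. Of 17 measured, 11 rose and 4 fell, but 6 rose and 5 fell after quantile normalization, and 5 rose and 8 fell when arrays were scaled to the hybridization controls. The median of 0.58 was -0.01 and -0.19 under these scalings. Myeloperoxidase (Mpo) read 132165, 142660 and 126200 in HoxA9 and 196759, 216055 and 237929 in NUP98-NSD1, but its difference of 0.70 turned to -0.01 after quantile normalization and -0.08 on the control scale, and the MLL-ENL array, with the higher control level, read 221677. Larger rises on this list were those of the cytotoxic granule protein Nkg7, with 127, 112 and 124 against 27145, 24236 and 15346 and at least 53.9-fold, the ficolin Fcnb, with 804, 1603 and 1363 against 24892, 25357 and 82139.7 (4.91), and lysozyme (Lyz2; 2.27). Cathepsin C (Ctsc), which activates the granule proteases, rose at agreeing probe sets, 13502, 11648 and 13302 against 28979, 28542 and 30025 (1.19). The lectin receptor Clec5a fell by 1.62 and properdin (Cfp), with agreeing probe sets, by 1.34.

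Genes of the mast cell list that rose did so most in NUP98-NSD1 clones 1 and 2. Carboxypeptidase A3 (Cpa3), a mast cell granule protease, read 844, 724 and 754 in HoxA9 and 96364, 94796 and 33297 in NUP98-NSD1 clones 1, 2 and 3, a difference of 6.39 ± 0.73 (SE; limma adjusted p 0.000242). All NUP98-NSD1 clones were well above HoxA9, with clone 3 below the others. The chymase Cma1 read 700.2, 606 and 625 against 61664, 52547 and 1999, and the IgE receptor alpha chain Fcer1a 185, 44.8 and 495 against 29473, 19971 and 1115. In both, clones 1 and 2 were high and clone 3 lay only a few times above HoxA9: the difference of Cma1 was 4.80 with all clones and became 6.40, 3.94 or 4.05 once clone 3, 1 or 2 of NUP98-NSD1 was left out, and that of Fcer1a was 5.41 with all clones and 6.88, 4.54 and 4.82 in the same order (4.70 and 6.09 without HoxA9 clones 2 and 3).

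The IgE receptor beta chain Ms4a2 rose at 2 probe sets. The brighter read 577, 902 and 877 against 23349, 18834 and 4006, a difference of 3.92 (4.71 without NUP98-NSD1 clone 3). The call of the other (3.22) was lost without HoxA9 clone 2, NUP98-NSD1 clone 1 or NUP98-NSD1 clone 2, where the difference was 2.24, 2.91 and 2.95. The eosinophil granule proteins Prg2 and Epx rose at least 9.13-fold and at least 6.84-fold, and without NUP98-NSD1 clone 3 these bounds were 17.4 and 10.9 (5.98 for Prg2 without clone 1). Mitf, a transcription factor that mast cells need, differed least among those that rose and was even across clones: 1030.1, 1519 and 1316 against 2303, 2213 and 2145 (0.79 ± 0.18, SE). The hybridization controls of the 2 groups differed by 0.77. Mcpt2, Tpsab1 and Gata1 did not pass (3.01, 1.20 and 1.10); in each, NUP98-NSD1 clones 1 and 2 were above the HoxA9 clones and clone 3 was within or below their range. The other 2 genes that did not pass were not higher at the probe set read: Tpsb2 differed by -0.03 and Cyp11a1 by -0.67. Another Tpsb2 probe set was above the filter level on only 2 arrays and so was not tested. It read 13115 and 11996 in NUP98-NSD1 clones 1 and 2, against 254 in clone 3 and 242, 42.7 and 108 in HoxA9.

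Promoters of 3 mast cell genes and 3 neutrophil genes are shown because their 2 lists had the largest medians. Capitals mark matches to a GATA motif (AGATAA or TTATCT) and to a C/EBP motif (TTGCNNAA, both strands, N any base) in all 6, and the genes were chosen for holding the former (mast cell) or the latter (neutrophil). The sequences are the 250 bases before the annotated start in RefSeq, build GRCm38.p6, 5' to 3' on the gene's strand. Ms4a2 lies at chr19:11623720-11623969 on the minus strand, Cpa3 at chr3:20242182-20242431 on the minus strand and Fcer1a at chr1:173227230-173227479 on the minus strand. Ngp lies at chr9:110419558-110419807 on the plus strand, Ltf at chr9:111019042-111019291 on the plus strand and S100a9 at chr3:90695722-90695971 on the minus strand.
Ms4a2: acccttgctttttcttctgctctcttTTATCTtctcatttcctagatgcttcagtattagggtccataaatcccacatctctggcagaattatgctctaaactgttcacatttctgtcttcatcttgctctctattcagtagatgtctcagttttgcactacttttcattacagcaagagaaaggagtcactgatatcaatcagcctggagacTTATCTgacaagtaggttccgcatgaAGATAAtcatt
Cpa3: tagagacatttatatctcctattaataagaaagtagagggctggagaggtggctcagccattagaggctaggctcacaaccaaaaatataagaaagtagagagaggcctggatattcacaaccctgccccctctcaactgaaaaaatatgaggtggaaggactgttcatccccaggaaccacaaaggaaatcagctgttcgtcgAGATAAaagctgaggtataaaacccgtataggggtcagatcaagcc
Fcer1a: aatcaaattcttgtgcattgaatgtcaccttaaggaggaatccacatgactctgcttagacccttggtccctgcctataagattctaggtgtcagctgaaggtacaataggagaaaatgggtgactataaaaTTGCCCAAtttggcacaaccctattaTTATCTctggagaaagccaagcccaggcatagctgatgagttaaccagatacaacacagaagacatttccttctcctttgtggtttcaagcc
Ngp: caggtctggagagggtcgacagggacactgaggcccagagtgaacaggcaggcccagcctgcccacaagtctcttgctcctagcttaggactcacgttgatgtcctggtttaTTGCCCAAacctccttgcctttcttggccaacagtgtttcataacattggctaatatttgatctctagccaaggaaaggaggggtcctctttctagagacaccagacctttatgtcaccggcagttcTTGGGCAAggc
Ltf: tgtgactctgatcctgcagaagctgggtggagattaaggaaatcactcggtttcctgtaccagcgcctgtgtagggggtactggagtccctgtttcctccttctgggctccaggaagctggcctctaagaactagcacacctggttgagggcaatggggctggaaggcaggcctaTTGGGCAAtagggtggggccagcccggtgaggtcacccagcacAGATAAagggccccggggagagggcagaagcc
S100a9: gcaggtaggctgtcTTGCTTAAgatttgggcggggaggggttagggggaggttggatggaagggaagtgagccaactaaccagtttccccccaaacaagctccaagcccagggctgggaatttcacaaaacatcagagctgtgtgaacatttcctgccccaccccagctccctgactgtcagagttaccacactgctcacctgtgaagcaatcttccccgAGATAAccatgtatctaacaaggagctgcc
The GATA matches begin 224, 37 and 11 bases before the start in Ms4a2, 46 in Cpa3, 92 in Fcer1a, 32 in Ltf and 30 in S100a9. The C/EBP matches begin 138 and 11 bases before it in Ngp, 75 in Ltf, 236 in S100a9 and 118 in Fcer1a. Both motifs occurred in both lists: the GATA motif was found in 4 of the 11 mast cell list genes with a window and 5 of the 20 neutrophil list genes, and the C/EBP motif in 3 and 6 of them. Among windows of all genes tested, 6.56% held the GATA motif and 7.94% the C/EBP motif, against 9.99% and 9.56% of all 32851 windows in the table. Genes with agreeing rises held the GATA motif in 3.72% of 618 windows and those with agreeing falls in 5.82% of 567; for the C/EBP motif the shares were 5.18% and 5.82%. A Hox and Meis composite (TGATTNAT) was in 1.13% and 0.529% of these windows and in 1.53% of those of all genes tested, the PU.1 core GAGGAA in 23.5%, 20.6% and 22.5%, and the AP-1 motif TGANTCA in 4.21%, 4.59% and 5.16%. These shares are descriptions of letters in a window, without a test.

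The NUP98-NSD1 clones were not alike. Between clones 1 and 2 only 11 genes differed at least 4-fold, against 116 between clones 1 and 3 and 70 between clones 2 and 3; the HoxA9 clones gave 114, 153 and 36. Of the 116 genes, 74 were higher in clone 1, among them 10 of the 15 mast cell list genes, and 42 were higher in clone 3, among them 10 of the 23 neutrophil list genes. Clone 3 was the lowest of the 3 in 14 of 15 mast cell genes and the highest in 20 of 23 neutrophil genes, against 6370 and 4475 of all 14233 genes. Read against the mean of the HoxA9 clones, the neutrophil list had medians of 2.15, 2.24 and 4.31 in NUP98-NSD1 clones 1, 2 and 3 and 0.00 on the MLL-ENL array. The mast cell list had medians of 3.58, 3.30 and 0.87 in the same clones and -0.05 in MLL-ENL. Clone 1 in turn was the lowest of the 3 in 29 of 30 genes of oxidative phosphorylation and 14 of 15 ribosomal protein genes, against 4305 of all genes. These ranks come from deposited signal. The arrays of clones 1, 2 and 3 had median signals of 638, 558 and 455 and highest signals of 225137, 248849 and 268316. How scaling would change the ranks was not tested.

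**Figure D3:**
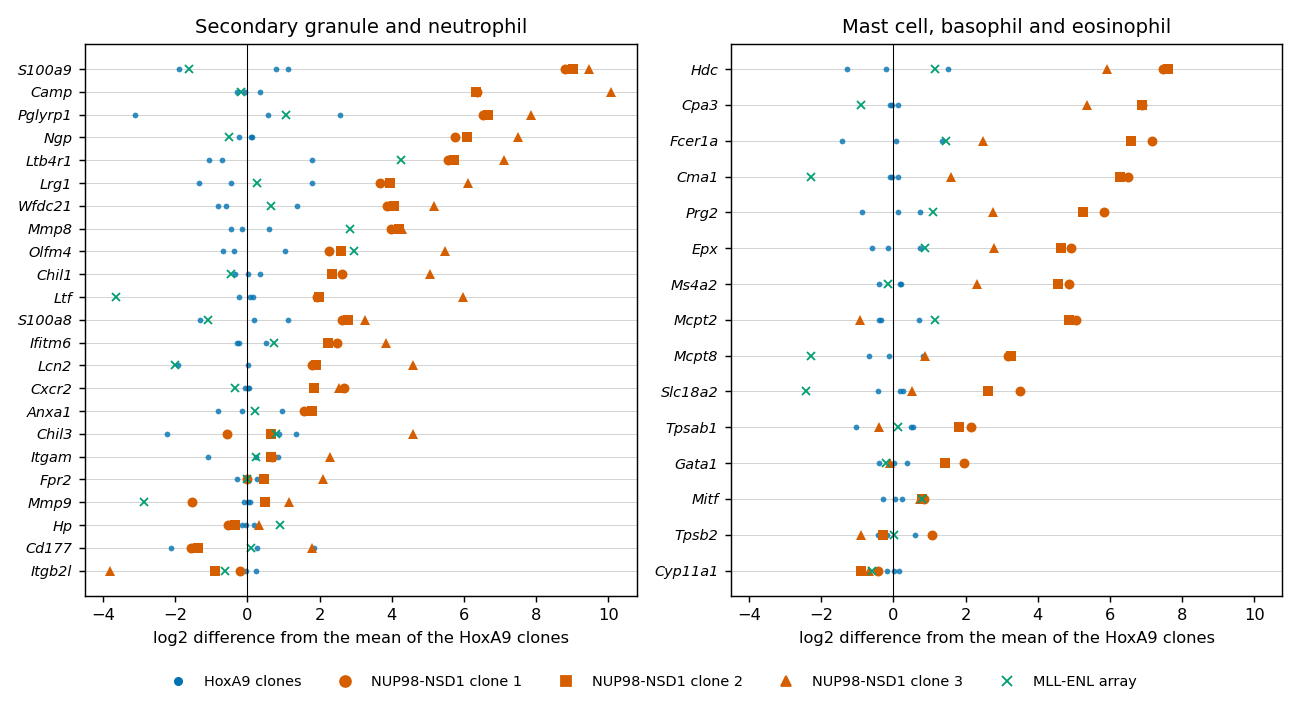
Log2 difference of each measured gene from the mean of the 3 HoxA9 clones, for the neutrophil list (left, 23 genes) and the mast cell list (right, 15 genes). Small blue dots are the HoxA9 clones, orange symbols the 3 NUP98-NSD1 clones and green crosses the MLL-ENL array; the triangles of clone 3 lie farthest right in 20 of 23 neutrophil genes and farthest left of the orange symbols in 14 of 15 mast cell genes.

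Because a probe set had to exceed the filter level on 3 arrays, genes on in only 1 or 2 clones were not tested. Of genes with no kept probe set, 5 read over 1000 in NUP98-NSD1 clones 1 and 2 and below the filter level on all 8 other arrays: the mast cell chymase Mcpt4, the G protein regulator Rgs13, the inhibitor of basic helix-loop-helix factors Id3, the G protein subunit Gnaz and Pdzph1. Mcpt4 read 11475 and 8976 in clones 1 and 2 and 112 in clone 3, and Rgs13 3600 and 2664 against 107. Ceacam10 and Ctrb1 did so in clone 3 alone, at 1442 and 1026, and Aldh1a3, Col2a1, Epyc and Tex37 in clone 1 alone, at 1006 to 1157. These genes were picked by their values and have no test.

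Markers of other cell types were summed per array from their brightest probe sets. The mast cell sum (Cpa3, Mcpt4, Tpsb2, Cma1, Ms4a2) was 2357 to 2518 in the HoxA9 clones, 39667 to 205967 in the NUP98-NSD1 clones and 1466 in MLL-ENL; Mcpt4 and Tpsb2 were below the filter level on every HoxA9 array and in NUP98-NSD1 clone 3. The megakaryocyte sum (Pf4, Itga2b, Gp9) was 3551 to 4105 against 4155 to 17334. Sums of B cell markers (1277 to 2273 against 1106 to 2708), T cell markers (385 to 1155 against 533 to 1111) and red cell markers (2476 to 3497 against 1892 to 3669) overlapped between the groups, and the T cell marker Cd3g was below the filter level on all 10 arrays. The sum over 5 stromal and endothelial markers was 2757 to 5522 against 3404 to 9523, and Pecam1 was 479, 434 and 2872 in HoxA9 and 8109.8, 7282 and 1942 in NUP98-NSD1, while Col1a1 lay below the filter level in every NUP98-NSD1 clone. The myeloid progenitor sum, which checks the labelled cell type, was high on all arrays, at 352454 to 378367 against 482382 to 566099. The part of other cell types in the granule results was not tested.

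Platelet factor 4 (Pf4) moved with the mast cell genes across clones, at 756, 744 and 611 in HoxA9 and 9629.5, 7324 and 1833 in NUP98-NSD1 (2.80, or 3.52 without NUP98-NSD1 clone 3). On the list of red cell and megakaryocyte genes, 5 of 15 rose and 1 fell, with a median of 0.63 that was -0.15 on the hybridization-control scale. The cofactor of GATA factors Zfpm1 read 511, 586 and 433 against 3839, 2929.7 and 1831 (2.37), and Nfe2, a factor of platelet and red cell genes, 13687, 15509 and 16000.1 against 31713, 28491 and 30634 (1.01). The groups did not overlap for either gene. The membrane skeleton protein Ank1 fell by 1.8, and globin and glycoprotein genes on the list did not pass (Hba-a1 -0.99, Gp1bb -1.20).

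Of 23 measured genes of stem and progenitor cells, 11 rose and 2 fell, but on the hybridization-control scale 8 rose and 7 fell. Of 11 with 2 or more probe sets 5 agreed on a rise (Gata2, Angpt1, Cd93, Egfl7 and Myct1); the median of 0.89 was 0.11 on that scale. The agreement of Myct1 was lost without HoxA9 clone 1 or 2 or NUP98-NSD1 clone 1 or 2, where its weaker called probe set differed by 0.85, 0.72, 0.84 and 0.88 in place of 0.91. Erg, an Ets factor of stem cells and endothelium, read 13.6, 10.9 and 8.61 in HoxA9 and 8139, 8133 and 7079 in NUP98-NSD1. It was at the floor in all HoxA9 clones and even across the NUP98-NSD1 clones, at least 19.4-fold higher (limma adjusted p 2.36e-08), and stood at 5730.1, 5966 and 7252 in HoxA9+Meis1. Cd93, a surface lectin of early progenitors, was present in both groups and read 5586, 5807 and 7487 against 41254, 45057 and 46315, a difference of 2.82 ± 0.11 (SE; adjusted p 7.09e-07).

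Other progenitor genes depended more on single HoxA9 clones. Cd34 read 97.8, 93.9 and 1845 in HoxA9 clones 1, 2 and 3, the third far above the others, and 32329.9, 29092 and 12432 in NUP98-NSD1. Its difference of 6.18 became 7.47 without HoxA9 clone 3, 5.55 without clone 1 and 5.53 without clone 2. The Tie2 ligand Angpt1 read 50.8, 404 and 265 against 11723, 13325 and 4631 (5.35, or 4.65 without HoxA9 clone 1) and the TNF receptor family member Cd27 352, 66.3 and 402 against 7378, 9169.7 and 4610.1 (4.75, or 4.06 without HoxA9 clone 2). Flt3, a cytokine receptor of early progenitors, rose by 1.57 from low signal (1047, 702 and 1429.9 against 3128, 4193 and 2227), well below HoxA9+Meis1 at 34997, 30939 and 23470.2. The stem cell factor receptor Kit did not pass (0.49, groups overlapping), and its ligand Kitl fell by 1.53. The 2 genes of the list that fell, Esam and Robo4, encode surface proteins shared with endothelium. Esam read 712, 568 and 785 against 82.4, 251 and 50.7, at least 1.78-fold lower, and Robo4 535, 891 and 778 against 95.4, 446 and 250.2 (-1.54), a call lost without HoxA9 clone 2 or 3 or NUP98-NSD1 clone 1 (-1.39, -1.49 and -1.03).

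Of 38 transcription factors of myeloid cells 15 rose and 1 fell, with a median of 0.56; on the hybridization-control scale 5 rose and 11 fell, with a median of -0.22. Gata2, which mast cells and stem cells share, read 1369, 1401 and 1469 against 13669.5, 11075 and 3633 (2.51 ± 0.41, SE), with at least 15-fold at a second probe set (24.2 without NUP98-NSD1 clone 3). The HoxA9 clones nearly coincided, and NUP98-NSD1 clone 3 was the lowest of its group. The Ikaros family factor Ikzf2 rose with agreeing probe sets, from 772, 827 and 696 to 12586, 11014 and 4147 (3.39), as did Id2, from 2598, 1811 and 2325 to 9581, 9809 and 15723 (2.34), and Klf4, a factor of monocytes, at least 4.42-fold. Stat3 rose by 1.20, with 11616, 9743 and 12092 against 28602, 24504 and 23877, and Runx3 by 1.13. The factor that fell at its brightest probe set was Cebpa, which directs granulocyte fate, at 33176, 33526 and 33905 against 21083, 23002 and 19412 (-0.67 ± 0.16, SE; limma adjusted p 0.0109). Zeb2, a repressor, had agreeing probe sets that fell, but the brightest of its 4 kept probe sets pointed the other way and did not pass (0.51).

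Hox genes split. Of 18 measured, 7 rose and 1 fell, against 10 that did not pass, and the median of 0.01 was -0.77 on the hybridization-control scale. Hoxb5 read 49, 48.5 and 56.4 against 1303, 1550.2 and 2129, at least 4.13-fold, Hoxb2 rose by 2.58 and Hoxb3, with agreeing probe sets, by 1.53. Hoxa10 read 272, 368 and 409 against 4859, 4324 and 11545 (4.06) at a probe set that the array marks as shared by alternative transcripts, and the other probe set, which did not pass, differed by -0.50. Hoxa9 was among the genes whose probe sets disagreed: the brightest read 27259, 43395 and 59375 in the HoxA9 clones and 6783, 6872 and 8481 in NUP98-NSD1 (-2.49), and the other 32.4, 50.8 and 25.9 and 32131, 31804 and 36931, at least 83.7-fold higher. So 1 probe set was high in every HoxA9 clone, as the label requires, and the other was at the floor in them. Meis1, a partner of Hox proteins, rose at least 13.3-fold at 1 of 3 probe sets (16.7, 27.9 and 20.6 against 6267, 5655 and 4214), and the other two did not pass (-0.06 and -0.18).

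TGF-beta signalling genes changed in opposite directions, so that the list's median of 0.21 (-0.57 on the hybridization-control scale) hides the largest changes. Of 32 measured, 8 rose and 5 fell (25% and 15.6%, beside 13.3% and 18.2% of all genes). Of 23 with 2 or more probe sets 5 agreed on a rise and 2, Sdc2 and Tgfbr3, on a fall. Over all genes with 2 or more probe sets these shares were 8.36% and 8.30%. Endoglin (Eng), a co-receptor like betaglycan, read 499, 799.7 and 1168 in HoxA9 and 7004, 7531 and 8762 in NUP98-NSD1 (3.26 ± 0.39, SE), with at least 2.91-fold at its second probe set. The NUP98-NSD1 clones were close together and all above the HoxA9 clones. The type II receptor Tgfbr2 rose by 1.12 (4369.7, 3089 and 3027 against 8629, 7907 and 6235) and the activin receptor Acvr1b by 1.48, while the activin type II receptor Acvr2a fell by 1.62 (1516, 1944 and 1481 against 535, 511 and 489.9). So receptor chains moved both ways, by more than the spread between clones.

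Adhesion genes gave 8 rises and 4 falls among 31, median 0.28 (-0.50 on the hybridization-control scale). These shares were 25.8% and 12.9%, beside 13.3% and 18.2% of all genes. The tetraspanin Cd9 read 105, 108 and 46.8 against 4636, 4421 and 2701, at least 9.58-fold, and Itgb7, the integrin beta 7 chain carried by mast cell progenitors, 163, 299.9 and 557 against 3014, 4331 and 2579 (3.28). Itgav fell by 0.67 and Itgb1, with agreeing probe sets, by 0.80 (11440.5, 11042 and 10192 against 5774, 6379 and 6589). Lipid mediator genes gave 6 rises and 3 falls among 18 (33.3% and 16.7%), median 0.36 (-0.42 on the control scale), and the largest rises were in receptors. The prostaglandin E receptors Ptger3 and Ptger4 read 20.4, 45.3 and 22.5 against 3419, 3057 and 1734, at least 6.63-fold, and 107, 392 and 114 against 3267, 3377 and 1877 (3.76), and the prostacyclin receptor Ptgir 385, 536 and 616 against 3337, 4065 and 3397 (2.76). The groups did not overlap for any of the 3. Hpgd, which breaks down prostaglandins, read 26788, 33217 and 13797 against 178, 570.1 and 8165, a difference of -4.51 that was -6.02 without NUP98-NSD1 clone 3 and -3.38 without clone 1.

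Of 27 cytokine receptors 5 rose and 6 fell (18.5% and 22.2%, near the 13.3% and 18.2% of all genes), median 0.12 (-0.65 on the hybridization-control scale). The G-CSF receptor Csf3r read 4865, 6149.6 and 9302 against 17184, 16686 and 18249 (1.41), and the shared beta chain Csf2rb rose at 2 probe sets (0.92). Of the 4 interferon receptor chains 3 fell, Ifngr1 by 0.98, Ifnar1 by 0.60 and Ifnar2, with agreeing probe sets, by 0.66, and Ifngr2 did not pass (0.17). Of 25 interferon response genes, 4 rose and 7 fell (16% and 28%, beside 13.3% and 18.2% of all genes). The list's median was 0.23 (-0.55 on the control scale). The guanylate-binding protein Gbp3 read 9901, 8489 and 8496 against 1537, 1234 and 1807 (-2.54 ± 0.16, SE; limma adjusted p 1.48e-05), and the peptide transporter Tap1, with agreeing probe sets, 10744, 10916 and 9314 against 3705, 3906 and 3520.3 (-1.47). These falls were even across the NUP98-NSD1 clones, with no overlap. The immunoproteasome subunits Psmb8 and Psmb9 fell by 0.97 and 0.96. By contrast the membrane proteins Ifitm1 and Ifitm3 rose, Ifitm1 from 549, 145 and 807 to 44318, 42171 and 40240.4 (6.58, or 5.92 without HoxA9 clone 2) and Ifitm3 from 12182, 9161 and 9716 to 46814, 50391 and 56246 (2.31).

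Immediate early genes, which growth factors induce within minutes, rose in 11 of 25 and fell in 5, median 0.63 (-0.15 on the hybridization-control scale). Fos read 3303, 1213 and 1624 against 9341, 8689 and 11025 (2.35), Jun 1840.5, 987 and 1410.3 against 2995, 4258 and 3897 (1.40) and the phosphatase Dusp1 646, 575 and 602 against 1860.2, 2100.2 and 2358 (1.74). The groups did not overlap for these 3 genes. MLL-ENL read 7545, 1911 and 603. Of the falls, Fosl2 had agreeing probe sets (-0.87 at the brightest), of which the dimmer lost its call without HoxA9 clone 1, 2 or 3 or NUP98-NSD1 clone 3 (-0.74, -0.62, -0.72 and -0.47).

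Chromatin genes around the fusion gave 11 rises and 4 falls among 34, median 0.17 (-0.60 on the hybridization-control scale). Nsd1 itself read 2305, 4284 and 3252 in HoxA9 and 937, 603 and 795 in NUP98-NSD1 at its brightest probe set. It fell by 2.01 there and at least 2.02-fold at a second, and the MLL-ENL array read 5223 and 1207. Where the probes lie relative to the part of NSD1 in the fusion was not analysed here. Nup98 did not pass at its brightest probe set (0.18). Its other kept probe set fell by 0.56 (limma adjusted p 0.0148), a call lost without HoxA9 clone 1 (-0.47). Menin (Men1), the subunit that tethers MLL complexes, read 4938, 4594 and 4580.3 against 8353, 8705 and 8482 (0.85), although the call of its second probe set (0.65) was lost without HoxA9 clone 2 or 3 or NUP98-NSD1 clone 2 or 3 (0.54, 0.58, 0.62 and 0.60). Kmt2c rose by 0.83 at agreeing probe sets and the H3K36 demethylase Kdm2a by 1.26 at its brightest.

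Cell cycle, death and metabolism genes mostly differed by less than 2-fold. Of 23 genes of G1 control 8 rose and 4 fell (34.8% and 17.4%, median 0.23). Of 31 of DNA replication and mitosis 9 rose and 5 fell (29% and 16.1%, median 0.15). Of 23 of cell death 9 rose and 4 fell (39.1% and 17.4%, median 0.21). Over all genes 13.3% rose and 18.2% fell. On the hybridization-control scale these 3 medians were -0.54, -0.63 and -0.57. The inhibitor Cdkn1b read 3593, 4339.6 and 3525 against 8917, 8032 and 10284 (1.24), and Cdkn2c fell by 1.30 (10480.1, 17013 and 11694 against 4337, 4616 and 6939). The death promoter Bcl2l11 read 4664, 3353 and 3379 against 9267, 9719 and 8672 (1.29). In glycolysis, 6 of 21 rose and 1 fell, median 0.28 (-0.05 after quantile normalization, -0.50 on the control scale). The glucose transporter Slc2a3, with agreeing probe sets, read 1239, 1627 and 2260.4 against 14514, 6393 and 22039 (2.91), against 19.5 in MLL-ENL, and aldolase C (Aldoc) 748, 776 and 556 against 5506, 3083 and 5599 (2.68). Both genes were higher in every NUP98-NSD1 clone than in any HoxA9 clone. The fatty acid desaturase Fads2 had the largest rise among 24 sterol and fatty acid genes, of which 8 rose and 1 fell (median 0.10, -0.67 on the control scale), with 1477, 1261 and 1370.4 against 6319, 6899.6 and 6428 (2.23 ± 0.13, SE).

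Genes of monocytes and macrophages numbered 26, of which 5 rose and 2 fell (median 0.50, -0.28 on the hybridization-control scale). These shares were 19.2% and 7.69%, beside 13.3% and 18.2% of all genes. The lysosomal protease cathepsin S (Ctss) read 373, 1007 and 1062 in HoxA9 against 17077, 19389.6 and 17539 in NUP98-NSD1 (4.54 ± 0.32, SE), and Ly86, a partner of a Toll-like receptor homologue, 106, 532 and 596 against 3091, 3334 and 6920.2 (3.52, or 2.81 without HoxA9 clone 1). The other rises were Klf4, Mrc1 (1.19) and Lpl (1.64), whose call was lost without HoxA9 clone 2 or 3 or NUP98-NSD1 clone 2 or 3 (1.30, 1.59, 1.59 and 1.55). Of the falls, embigin (Emb), a partner of lactate transporters, read 73172, 69149 and 62772 against 28697, 31300.2 and 36337 (-1.09 ± 0.13, SE) and fell at all 3 of its probe sets. Of 23 cytokines 5 rose and 4 fell (0.08, -0.70 on that scale), with Vegfa, the vascular growth factor, lower at agreeing probe sets, 10342, 9127 and 10162 against 5515, 4295 and 5533 (-0.95). No clone of NUP98-NSD1 overlapped HoxA9 in either gene. Of 21 chemokines and chemotactic receptors 3 rose and 2 fell (0.34, -0.43 on that scale). These shares were 14.3% and 9.52%, and those of the cytokines 21.7% and 17.4%, beside 13.3% and 18.2% of all genes. The complement receptor C3ar1 rose at 2 of 3 probe sets, by 1.5 and at least 3.88-fold, while its brightest did not pass (0.16).

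Of 15 lymphoid genes 1 rose and 1 fell (median -0.12, but 0.05 after quantile normalization, 0.22 after cyclic loess and -0.89 on the hybridization-control scale, where 4 fell), and of 13 MHC class II genes 0 rose and 1, H2-Ob, fell (-0.30, -1.08 on that scale, where 5 fell). Bcl11a, a lymphoid and stem cell factor, had 2 agreeing probe sets that rose (2.42 and 2.47), but its brightest did not pass and this agreement was lost without HoxA9 clone 2 or 3 or NUP98-NSD1 clone 1 or 2 (the second probe set then 2.06, 2.10, 2.35 and 2.32). Without HoxA9 clone 1 the 2 differences were 3.03 and 3.27. Of 10 TALE homeobox genes, the partners of Hox proteins, 2 rose and 1 fell (0.23, -0.54 on the hybridization-control scale). Of 24 MAPK pathway genes 5 rose and 3 fell (0.05, -0.72), of 31 Wnt and Notch genes 4 rose and 5 fell (-0.22, -0.99 with 20 falls), and of 21 lysosome genes 6 rose and 0 fell (0.29, -0.48). The shares that rose and fell were 20% and 10% for TALE genes and 20.8% and 12.5% for MAPK genes. They were 6.67% and 6.67% for lymphoid genes, 0% and 7.69% for MHC class II genes, and 28.6% and 0% for lysosome genes. For Wnt and Notch genes they were 12.9% and 16.1%, and over all genes tested 13.3% and 18.2%. Genes of oxidative phosphorylation rose in 12 of 30 and fell in 4 as deposited, but 5 rose and 11 fell after quantile normalization, 6 and 9 after cyclic loess, and 0 and 28 on the control scale. The median of 0.11 was -0.02, -0.02 and -0.67 under these scalings. The list of stromal and matrix genes had the lowest median, with 5 of 23 higher and 6 lower and a value of -0.81 (-1.58 to -0.64 under the other scalings). Most of these matrix genes were dim in both groups.

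**Figure D4:**
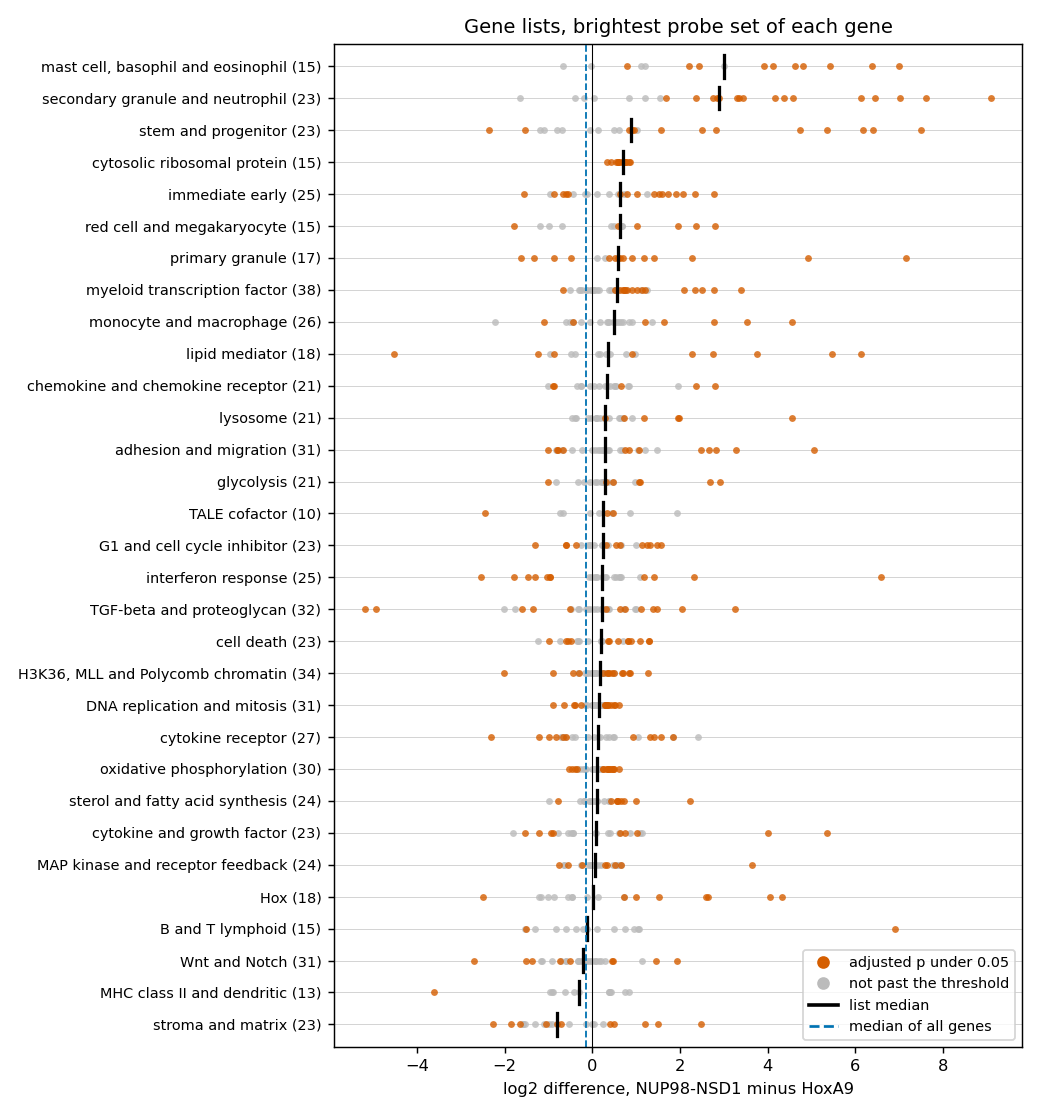
Log2 difference (NUP98-NSD1 minus HoxA9) of every measured member of 31 gene lists, read by its brightest probe set, with the number measured in brackets. Orange points passed an adjusted p of 0.05, grey points did not, black bars are list medians, and the dashed line is the median of all genes (-0.14); the mast cell and neutrophil lists stand at medians of 3.01 and 2.90, and no other list exceeds 0.89.

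Genes of cytosolic ribosomal proteins were high in NUP98-NSD1 and in MLL-ENL alike. As deposited, all 15 measured rose, but 2 rose and 2 fell after quantile normalization and 0 rose and 2 fell on the hybridization-control scale, and of 7 with several probe sets 2, Rpl7 and Rps3, had probe sets in opposite directions. The median of 0.69 was 0.02 after quantile normalization, 0.36 after cyclic loess and -0.08 on the hybridization-control scale. Rps24 read 114756, 121136 and 108654 in HoxA9 and 172186, 185961 and 199645 in NUP98-NSD1. MLL-ENL, with the higher control level, read 181681, and the list's median of NUP98-NSD1 minus MLL-ENL was -0.01. By the same measure, against the array of like control level, the neutrophil list differed by 2.70, the mast cell list by 3.54, the stem and progenitor list by 1.34 and the primary granule list by -0.06, beside 0.02 for all genes. The cultures differ in oncogene there too, and MLL-ENL is 1 array.

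**Figure D5:**
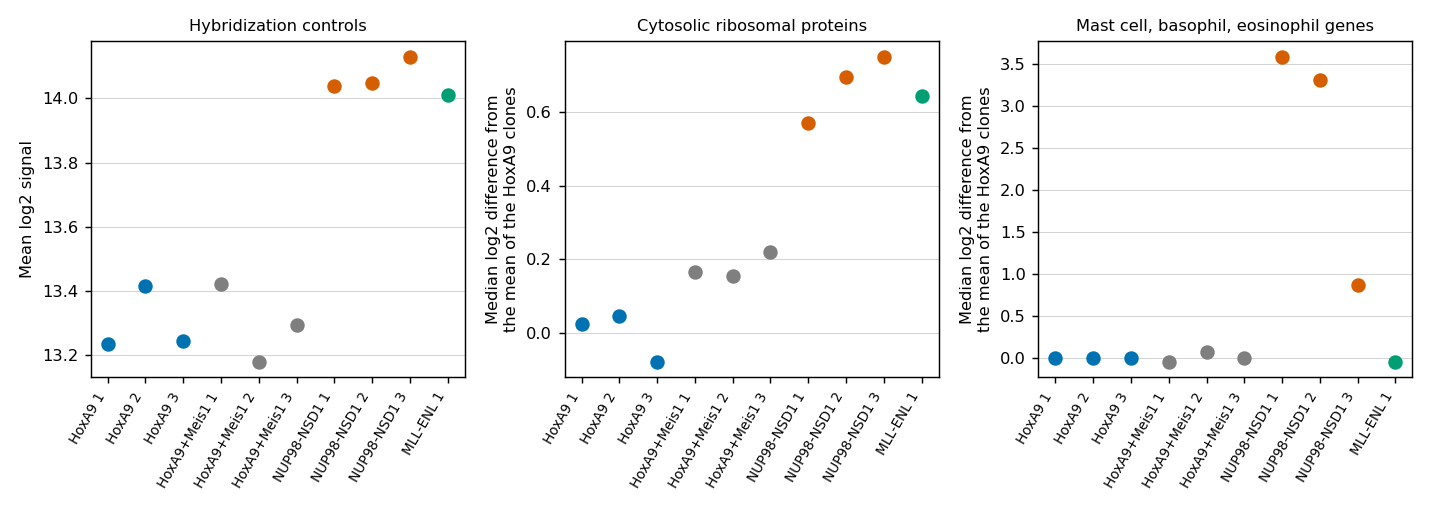
Mean log2 signal of the 18 hybridization-control probe sets on each of the 10 arrays (left), and, for the same arrays, the median log2 difference from the HoxA9 mean of 15 ribosomal protein genes (centre) and 15 mast cell genes (right). The controls and ribosomal genes are high in the 3 NUP98-NSD1 clones and in MLL-ENL alike, whereas the mast cell median is 3.58, 3.30 and 0.87 in the NUP98-NSD1 clones and -0.05 in MLL-ENL; the y axes do not start at 0.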

How the data were processed

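The deposited table holds linear signal intensity for 45101 probe sets of the Affymetrix Mouse Genome 430 2.0 array in 10 samples. Per the labels' protocols, total RNA was extracted from cell cytoplasm and labelled by the maker's standard method; the sources used here do not name the software that summarised probes. The trimmed mean (2% left off each end) was nearly the same on every array, so the authors' intensity values were already scaled, and they were used as deposited. They carry no detection calls, and the number of arrays limits the precision.

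Signals were transformed as log2(signal + 32). Probe sets above the 40th percentile of all values (369) on at least 3 of 10 arrays were kept (30945, of which 25459 had 1 gene symbol). Of all probe sets 34945 had 1 symbol, 932 several and 9160 none in the platform annotation; 34741 of the symbols were matched by Entrez ID to RefSeq. Group means were fitted over all 10 arrays with limma 3.58.1 in R 4.3.3, with an intensity trend and 6 residual degrees of freedom, and p-values were adjusted by Benjamini-Hochberg over all kept probe sets, or over the 14233 genes where the brightest kept probe set stands for the gene. Genes agreed where 2 or more probe sets were called in 1 direction and none in the other.

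The genes named are 15 agreeing rises and 15 agreeing falls without overlap between groups, whose brighter group exceeded 1000 on all its arrays, with the largest change at their least changed called probe set (arrays set at no less than 369); the 15th and 16th rises stood at 2.42 and 2.42 (Alcam and Bcl11a) and the falls at 1.48 and 1.44 (Tgfbr3 and Gm2a). Members of the gene lists are named besides these, in part by the same rule. Where that rule applied, lack of overlap was part of the choice. The members and lists were chosen with earlier results of these data known, and no list was tested as a set. Promoters come from RefSeq, build GRCm38.p6, matched by symbol. On simulated data, 43% of 100 genes changed by 1 and 69% of 100 changed by 2 on the log2 scale were found as agreeing among 6413 genes, with 0 of the unchanged genes. The simulated noise was independent for each probe set, all probe sets of a changed gene moved equally, and the groups did not differ in scale. It therefore cannot show how many agreements in these data are false.

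Alternatives covered the scaling, the offset, the filter, suffixed probe sets, the variance model, the arrays in the fit, a replicate block and each clone left out in turn. Figures were drawn with matplotlib 3.10.9 in Python 3.11.15.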

Additional observations from a re-analysis of the deposited data

How the results depend on the processing

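The largest effect came from scaling. On arrays set to a common hybridization-control mean, 364 genes were higher and 9718 lower by their brightest probe set, 81 and 3820 had agreeing probe sets, and 124 disagreed. A common median gave 2100 higher and 1752 lower (1887 and 2596 as reported), with 660 agreeing rises and 276 agreeing falls. Without suffixed probe sets, agreeing genes numbered 264 higher and 261 lower, and 135 disagreed. With 1 clone left out, the ranges were 1420 to 1963 higher, 1675 to 2570 lower, 366 to 592 agreeing higher, 289 to 540 agreeing lower and 151 to 327 disagreeing. Clone numbers do not pair the samples (correlations of same-numbered deviations 0.017, -0.032 and 0.017); with the number as a replicate block the counts were 1750, 2363, 495, 466 and 248. Of 197 named genes, 186 kept direction and side of the threshold after quantile normalization, 188 after cyclic loess and 142 on the control scale. Another 27 kept direction but lost their call on the control scale. Log2 differences that turned negative on the control scale were Pknox1 -0.30, Smad4 -0.47, Itga4 -0.025, Cbl -0.27, Spred2 -0.43, Rbl2 -0.15, Mcl1 -0.31, Scd2 -0.057, Hmgcs1 -0.37, Cox5b -0.28, Cox5a -0.52, Kmt2a -0.065, Jarid2 -0.18, Rps24 -0.081, Rpl35 -0.0040, Rps14 -0.15, Vim -0.38, Mpo -0.079, Hoxb4 -0.063, Pbx2 -0.45 and Ikzf1 -0.051. After quantile normalization Cox5a was -0.081, Rps14 -0.018 and Mpo -0.0075. Without suffixed probe sets Hoxa10 was -0.50. Beyond these constructions the cause was not tested. Signal near background limits the folds given as bounds.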
